A study of Mus musculus with 20 samples.

Results

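The genes described here encode 10 chaperones and folding enzymes: Hspe1, Hspd1 and Hspa9 of mitochondria, Pdia3, Hspa5, Calr, Canx and Hsp90b1 of the endoplasmic reticulum (ER), and Hspa8 and Dnajc7 of the cytosol. Every probe set that the platform annotation gives to these symbols was used, which came to 12 probe sets out of 12422 on the array (10 genes out of 8251 with a single symbol). Hspd1 and Canx have 2 probe sets each, called bright and dim below by their signal. No member probe set carried several symbols. The genes were selected on measured values of these arrays: Hspe1 was known to be low at 1.5 µg/kg against controls, and the comparison of controls 1 to 4 with controls 5 to 8 was part of the choice. For that reason, the members' differences from controls and between the control sets are given as descriptions. Counts of members past the threshold there are printed only beside the share over all probe sets, and nothing is read from them.

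Chaperones bind unfolded proteins and help them to reach their final form. In mitochondria, Hspe1 (HSP10) is the lid of the folding chamber built by Hspd1 (HSP60), and Hspa9 (mortalin) is the Hsp70 protein that pulls imported proteins through the inner membrane and passes some of them to that chamber. In the ER, Calr (calreticulin) and Canx (calnexin) hold newly made glycoproteins while Pdia3 (ERp57), a disulfide isomerase, forms their disulfide bonds, and Hspa5 (BiP) and Hsp90b1 (GRP94) are the Hsp70 and Hsp90 proteins of the same compartment. In the cytosol, Hspa8 (HSC70) is the constitutive Hsp70 protein and Dnajc7 is a J-domain co-chaperone that binds both Hsp70 and Hsp90. Heart muscle is rich in mitochondria and in sarcoplasmic reticulum, a specialised form of the ER.

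RNA came from whole hearts of fetal mice on gestation day 17.5. Their dams had been given corn oil, or TCDD (a dioxin that binds the aryl hydrocarbon receptor) at 1.5, 3 or 6 µg/kg, by oral gavage on gestation day 14.5, and all groups shared the corn oil vehicle as far as the labels say. The treatment day of 1 array at 1.5 µg/kg was unclear in its label and was left blank. There were 8 controls, numbered 1 to 8 in their titles, and 4 arrays at each dose, 20 in all. The design text speaks of 4 replicates of each treatment. No label says what separates controls 1 to 4 from controls 5 to 8, what strain was used, or whether RNA of single hearts, pooled hearts or whole litters was hybridised, so a p-value measures only the spread between these arrays. In whole hearts, fewer cells of a type and less RNA per cell cannot be told apart.

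Values are MAS5 signals, a linear intensity per probe set, on arrays scaled to the same trimmed mean of 500. Array medians lay between 171.4 and 210.6, and correlations between arrays across probe sets were 0.957 to 0.986. The number of arrays limits the precision. All 10 heart muscle markers were measured above the filter on dim probe sets. Cyp1a1 and Cyp1b1, textbook targets of the receptor, rose at every dose, Cyp1a1 by 1.76, 2.12 and 2.93 and Cyp1b1 by 1.39, 1.45 and 2.04 in log2 (standard errors 0.28 and 0.17, limma adjusted p of 0.00681 or less). Controls 1, 2 and 6 and array 4 of 6 µg/kg stood apart in the β-actin control probe sets, with a log2 ratio of 3′ over middle signal of 1.184, 1.331, 0.893 and 1.016, against 0.35 to 0.608 in the other arrays.

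The promoters are shown first because Hspe1 and Hspd1 lie head to head on chromosome 1 and because the ER members differ in a shared element. Windows from 250 bases before to 50 bases after a transcription start came from RefSeq (GRCm38.p6). They were used for 8 of the 10 members, 10 windows in all. No window of Hspa8 or Hspa9 was searched, so the counts of patterns below leave these members out. In the windows of Hspe1 (chr1:55087898-55088197, plus strand) and Pdia3 (chr2:121413652-121413951, plus strand), capitals mark GCGTG, the core bound by the aryl hydrocarbon receptor, and a heat shock element, searched as the blocks GAA, TTC and GAA with 2 bases between neighbours, on either strand.
Hspe1: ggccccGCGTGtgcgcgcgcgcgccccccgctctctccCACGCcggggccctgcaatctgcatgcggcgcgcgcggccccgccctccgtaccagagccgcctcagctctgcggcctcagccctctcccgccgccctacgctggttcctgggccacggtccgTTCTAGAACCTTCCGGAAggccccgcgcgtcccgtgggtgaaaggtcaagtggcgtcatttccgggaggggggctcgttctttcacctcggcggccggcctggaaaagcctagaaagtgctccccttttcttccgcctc
Pdia3: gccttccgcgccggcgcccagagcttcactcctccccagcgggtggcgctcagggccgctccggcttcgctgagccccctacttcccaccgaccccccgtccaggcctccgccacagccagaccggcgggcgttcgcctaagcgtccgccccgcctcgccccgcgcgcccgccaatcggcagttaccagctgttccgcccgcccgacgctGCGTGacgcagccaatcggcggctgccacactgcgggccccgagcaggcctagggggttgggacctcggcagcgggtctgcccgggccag
The Hspe1 window shares 285 identical bases with a window of Hspd1 on the opposite strand, and the starts lie 216 bases apart. A second Hspd1 start, with a window that shares 4 bases, lies 95 bases away on the other side. The shared stretch holds 2 overlapping matches of this heat shock element, on opposite strands, a pattern found in 0.608% of 32544 promoters of the same length. GCGTG stands in the windows of 7 members and in neither of the 2 windows of Dnajc7; 32.6% of all promoters hold it. The ER stress element, searched on both strands as CCAAT and, after any 9 bases, CCACG, was found in 0.12% of promoters, and Hspa5, Calr, Canx and Hsp90b1 hold it, Hsp90b1 with 2 copies. Each copy is printed below as read in the direction of the pattern, with its outer blocks in capitals.
Hspa5, chr2:34772025-34772043 (plus strand): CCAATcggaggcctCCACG
Calr, chr8:84847075-84847093 (plus strand): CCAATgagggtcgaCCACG
Hsp90b1, chr10:86705638-86705656 (minus strand): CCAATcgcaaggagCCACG
Hsp90b1, chr10:86705533-86705551 (plus strand): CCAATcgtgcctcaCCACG
Canx, chr11:50325800-50325818 (minus strand): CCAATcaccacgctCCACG
Among the 5 ER members, Pdia3 alone lacks these exact letters in its window, though it holds CCAAT 2 times, a pattern in 37.4% of promoters. In Calr, Hsp90b1 and Canx, a GCGTG match overlaps a copy of the ER stress pattern. Matches are descriptions of these windows and not of binding.

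Of the 12 member probe sets, 11 passed the filter on dim probe sets (at or above the array's own 40th percentile in at least 4 arrays), covering 9 genes. Calr did not pass: its signal lay between 2.4 and 44.0 in all 20 arrays, where the lowest 40th percentile of an array was 101.6, so its level was not measurable with this probe set. Exact permutation tests of Calr between the doses (two-sided, 70 splits each) gave adjusted p of 0.471 to 0.743.

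Hspe1 (gene at chromosome 1, 55088148 to 55091317 of GRCm38.p6) was lowest at 1.5 µg/kg and highest at 6 µg/kg. Its signal was 2827, 2603, 3181 and 3085 in controls 1 to 4 and 3164, 3707, 3513 and 3336 in controls 5 to 8. At 1.5 µg/kg it was 2383, 2252, 2362 and 2882.5, at 3 µg/kg 2584.5, 2705, 2818.5 and 2584.5, and at 6 µg/kg 3487, 3555, 3866 and 3339.9. All 4 arrays at 6 µg/kg lay above all 8 arrays at the lower doses, and they overlapped with controls 5 to 8. The spread within a group was small, with a coefficient of variation of 4.2% to 11.4% over the doses and 11.2% over the 8 controls.

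Hspd1, the partner of Hspe1 in the folding chamber, showed no such order. The bright probe set (gene at chromosome 1, 55077833 to 55088243) gave 4778, 8783, 9464 and 8481 in controls 1 to 4 and 9881.5, 8056.5, 10232.5 and 9159 in controls 5 to 8. In the 1.5 µg/kg arrays it was 10137, 6229.9, 8708 and 6209. The 3 µg/kg arrays gave 9680.5, 9355, 9856 and 6057, and the 6 µg/kg arrays 10183, 9480.2, 6623 and 5596. Every group overlapped with every other, and the highest array of a dose was 1.63 to 1.82 times its lowest, with coefficients of variation of 20.6% to 27.7%. Within groups, the bright Hspd1 signal varied with the mean 3′ to 5′ ratio of the β-actin and Gapdh control probe sets (r = 0.56 over 20 arrays with the 5 group means removed, a description); its part in the spread was not tested. The dim probe set lay between 25.7 and 224.7 and correlated with the bright one at −0.10 within groups. Hspa9 (chromosome 18) ranged from 4044 to 6121, with a median of 5540.3 in controls 1 to 4, 4505 in controls 5 to 8, and 4553, 4805 and 4888 over the rising doses. Its highest signals, 6119.7 and 6121, were in controls 1 and 2, which also had the highest β-actin ratios.

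Pdia3 (gene at chromosome 2, 121413902 to 121438687) split the controls into separate levels. The signal was 299, 349, 346 and 348 in controls 1 to 4, and 1229, 1571, 1166 and 1154 in controls 5 to 8. It was 622, 388, 566 and 676 at 1.5 µg/kg, 548, 832.5, 488 and 395 at 3 µg/kg, and 1389.6, 1443.5, 957 and 1229 at 6 µg/kg. In order of level, controls 1 to 4 lay below every treated array, 1.5 and 3 µg/kg overlapped with each other, and 6 µg/kg overlapped with controls 5 to 8 above all the rest.

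Hspa5 and Hsp90b1 varied less than Pdia3, and Canx varied more than either of them. Hspa5 (chromosome 2) lay between 3193 and 4928, and its control mean was 4234 ± 302.9 (SD, n = 8). At the rising doses its means were 4006 ± 584, 4244 ± 470.4 and 3978 ± 492 (SD, n = 4 for each). Hsp90b1 (chromosome 10) lay between 2992 and 4706, and its highest signals, 4706 and 4342.5, were again in controls 1 and 2. Within groups it varied with the β-actin 3′ over middle ratio (r = 0.63), as did Hspa9 (r = 0.58), and the part of this ratio in their levels was not tested. The bright Canx probe set (chromosome 11) gave medians of 384 in controls and 382, 436.5 and 545 over the rising doses, with a range of 219 to 689 over all arrays and overlap between 6 µg/kg (478 to 689) and both lower doses (315.5 to 633.5). The dim Canx probe set gave 201.7, 202.4, 189.5 and 187.1 in the same order, so the 2 Canx probe sets differed in direction at 6 µg/kg.

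Dnajc7 (gene at chromosome 11, 100582818 to 100620292) followed the order of Pdia3. It gave 759, 689, 989 and 993 in controls 1 to 4 and 1669.7, 2041, 1786.5 and 1715.5 in controls 5 to 8. It gave 1278, 1117, 1349.5 and 1404 at 1.5 µg/kg, 1361, 1412, 1239 and 1221.5 at 3 µg/kg, and 1630.0, 1469, 1794 and 2094 at 6 µg/kg. Controls 1 to 4 again lay below every other array, and 6 µg/kg overlapped with controls 5 to 8. Hspa8 (chromosome 9), the cytosolic Hsp70 with which J-domain proteins work, lay between 3647 and 5579 with overlap of all groups.

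**Figure D1:**
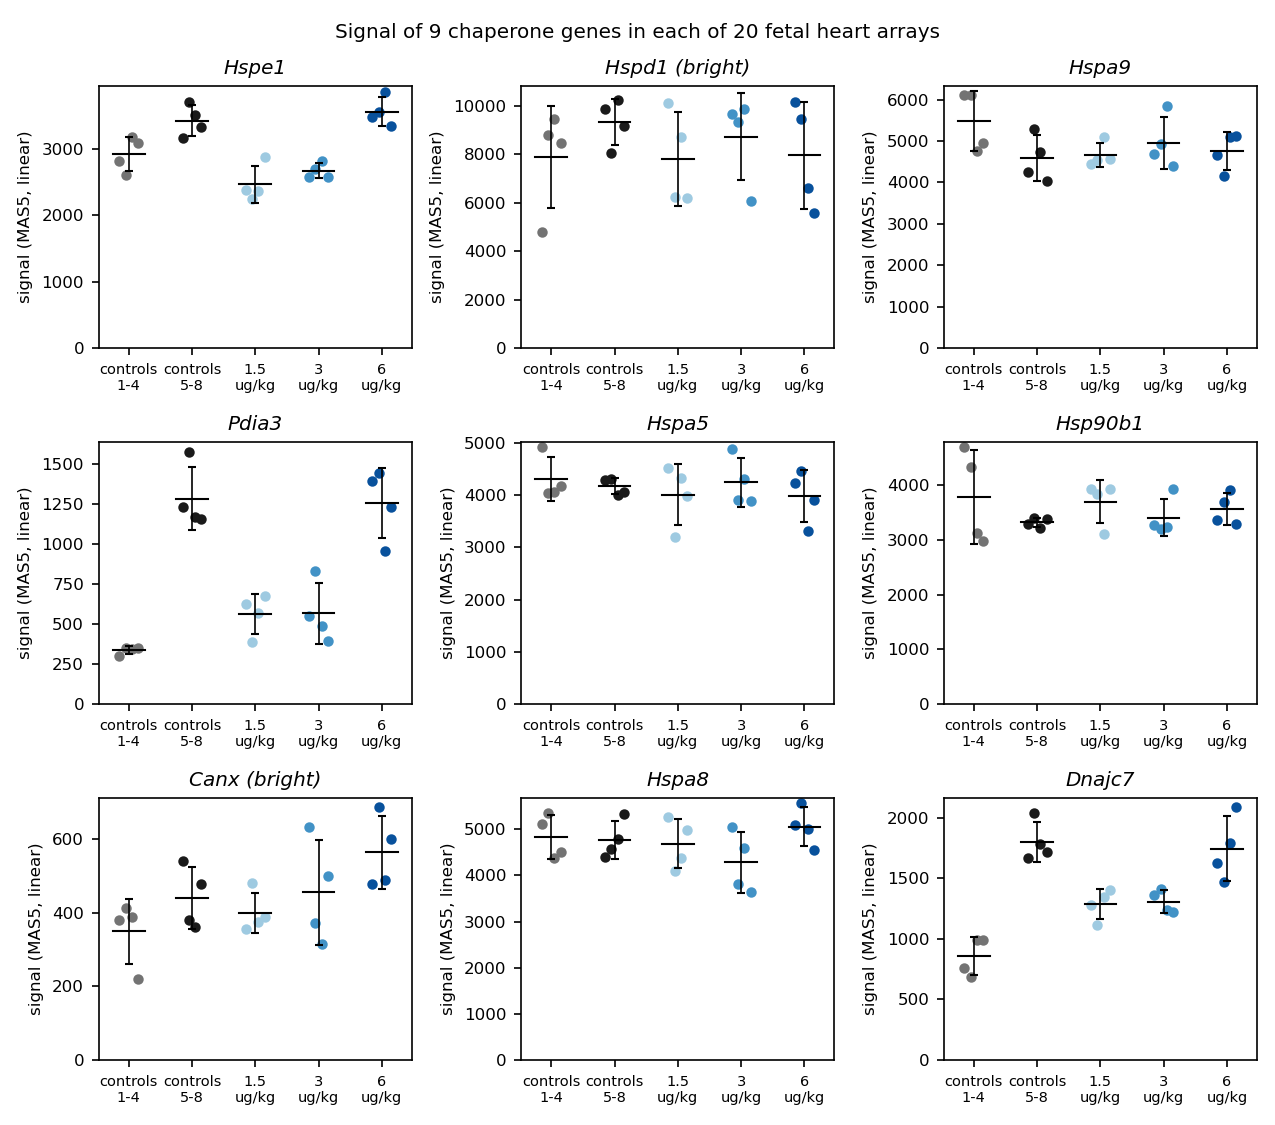
Linear MAS5 signal (y axis) of the 9 member genes above the filter, bright probe set where there are 2, in each of the 20 arrays by group (x axis). Points are arrays, horizontal lines group means and bars SD (n = 4 each); Pdia3 and Dnajc7 split controls 1 to 4 from controls 5 to 8, Hspe1 is highest at 6 µg/kg, and the bright Hspd1 probe set spreads widely in every group.

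The comparison of controls 5 to 8 with controls 1 to 4 describes the members in untreated hearts. Pdia3 was higher in controls 5 to 8 by 1.83 ± 0.18 (SE) in log2(signal + 32), a 3.55-fold difference, and Dnajc7 by 1.06 ± 0.12, a 2.08-fold difference. By p these were ranks 1 and 2 of 8097 probe sets. Among their partners, Hspa5 differed by −0.04 ± 0.11, Hsp90b1 by −0.16 ± 0.12, bright Canx by 0.32 ± 0.20, dim Canx by −0.22 ± 0.18 and Hspa8 by −0.02 ± 0.11. Among the mitochondrial members, Hspe1 was higher by 0.23 ± 0.09 and bright Hspd1 by 0.29 ± 0.22, while Hspa9 was lower by 0.26 in log2 (−0.26 ± 0.11). Of the 11 probe sets 2 passed an adjusted p of 0.05, against 1.57% of all probe sets, and in 2 the control sets did not overlap, against 8.03% of all probe sets in either direction. The choice of members used this comparison, so nothing is read from these ranks and counts. Summed liver markers were 546 to 934 in controls 1 to 4 and 932 to 1801 in controls 5 to 8 (4 of 10 genes above the filter; Apoa2, Ttr, Fgb and Apoh below it, with signals of at most 153.9), and summed erythroid markers 25257 to 28794 and 27336 to 34810; their part in the difference was not tested.

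Against all 8 controls, the doses gave small differences for most members. At 1.5, 3 and 6 µg/kg, Hspe1 differed by −0.36, −0.24 and 0.17 (SE 0.09 each), Pdia3 by −0.24, −0.26 and 0.88 (SE 0.37 each), Dnajc7 by 0.05, 0.08 and 0.48 (SE 0.22 each) and bright Canx by 0.04, 0.18 and 0.50 (SE 0.18 each). The other 7 probe sets lay between −0.21 and 0.10 at every dose. By limma 0 of 11 passed at each dose, where 0.21%, 0.0247% and 0.0741% of all probe sets did; 1, 1 and 3 members had an unadjusted p under 0.05, where 12.6%, 5.7% and 9.2% of all probe sets did. The median over the members was −0.09, −0.02 and 0.07, beside medians of 0.01, 0.0 and 0.0 over all probe sets.

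**Figure D2:**
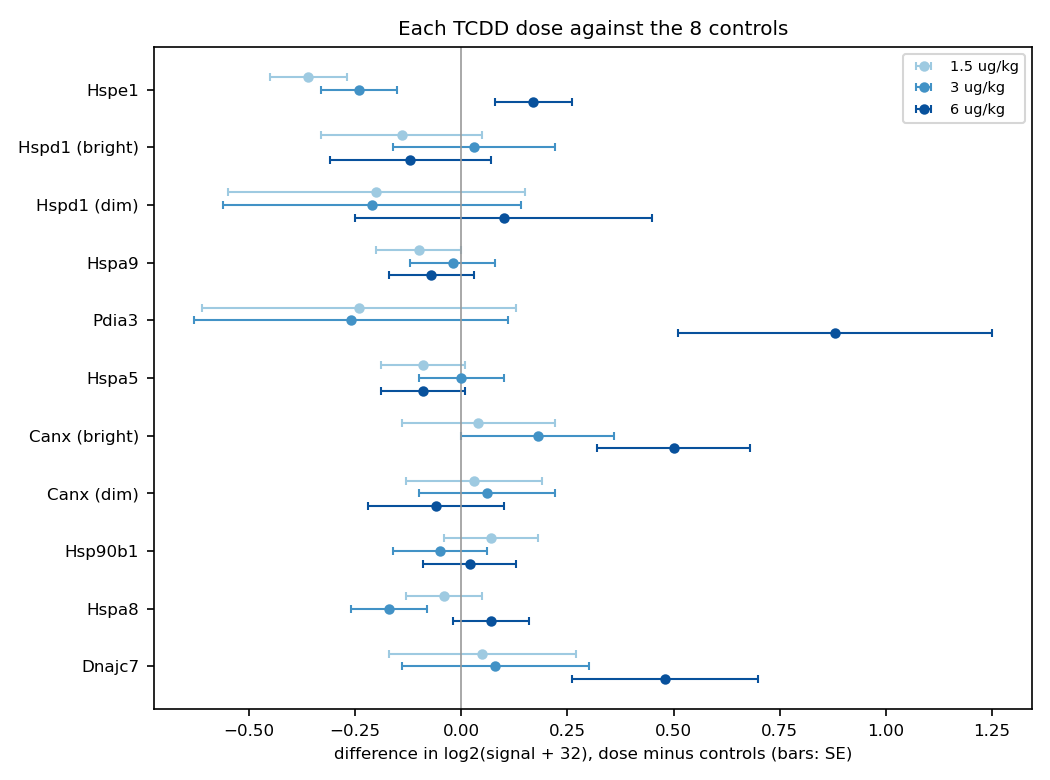
Difference in log2(signal + 32) between each TCDD dose (n = 4) and the 8 controls (x axis) for the 11 member probe sets above the filter (y axis). Points are limma estimates and bars standard errors; Hspe1 lies at −0.36, −0.24 and 0.17, and the bars of Pdia3 (SE 0.37) and Dnajc7 (SE 0.22) are wider than that of Hspe1 (SE 0.09).

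For Pdia3 and Dnajc7 the direction depended on which controls were used. Against controls 1 to 4 alone, Pdia3 differed by 0.67, 0.65 and 1.79 at the rising doses and Dnajc7 by 0.58, 0.61 and 1.01. Against controls 5 to 8 alone, Pdia3 differed by −1.16, −1.17 and −0.03 and Dnajc7 by −0.48, −0.45 and −0.05. Hspe1 differed from controls 1 to 4 by −0.24, −0.12 and 0.28 at the rising doses. It differed from controls 5 to 8 by −0.47, −0.35 and 0.05 (SE 0.09 for each of these). The −0.12 at 3 µg/kg and the 0.05 at 6 µg/kg lay within 2 SE of 0. With controls 1 to 4 alone 0, 0 and 2 members passed at the rising doses (0.0371%, 0.0494% and 2.31% of all probe sets), and with controls 5 to 8 alone 3, 1 and 0 (1.89%, 0.371% and 0.0371%). With the control sets as separate groups of 1 fit and each dose set against their mean, an alternative chosen after seeing the data, Hspe1 passed at 1.5 µg/kg (0.482% of all probe sets) and Pdia3 at 6 µg/kg (0.124%). The members were selected on these comparisons, so the calls restate the choice. All of them share the treated arrays.

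The doses can be set against each other without any control. From 1.5 to 6 µg/kg Hspe1 rose by 0.53 ± 0.10 (SE), a 1.44-fold rise with the 4 and 4 arrays not overlapping (limma adjusted p = 0.0255), and it was 1 of 11 members to pass, where 0.346% of all probe sets did. Its slope over the 12 treated arrays was 0.12 ± 0.02 per µg/kg (limma adjusted p = 0.0173), again 1 of 11 members against 1.1%. The 1.5 µg/kg arrays are those in which Hspe1 was known to be low, so this is not independent of the choice. From 3 to 6 µg/kg the Hspe1 difference was 0.41 ± 0.10 (limma adjusted p = 0.176) and from 1.5 to 3 µg/kg 0.12 ± 0.10 (limma adjusted p = 1.0). Of the 11 members 0 passed in these last comparisons (0.0371% and 0.0% of all probe sets), with 3 and 0 at an unadjusted p under 0.05, where 11.6% and 2.8% of all probe sets had one. The Hspe1 call lay close to the threshold, and leaving out single arrays moved it across while the difference stayed at 0.49 to 0.60. From 1.5 to 6 µg/kg the adjusted p was 0.108, 0.0946 or 0.0517 without array 1, 2 or 3 of 1.5 µg/kg and 0.0534, 0.0818 or 0.0736 without array 1, 2 or 3 of 6 µg/kg. The slope missed the threshold without array 1 or 2 of 1.5 µg/kg (0.0707 and 0.0514) or array 2 or 3 of 6 µg/kg (0.0634 and 0.0592). With that 3′ to 5′ ratio in the model the difference was 0.48 (adjusted p = 0.0832) and the slope 0.11 (adjusted p = 0.067). The mean log2 ratio was −0.034 to 0.073 at 1.5 µg/kg and 0.057 to 0.159 at 6 µg/kg. Summed erythroid markers were 24752 to 37265 and 31608 to 35292 at these doses, and their part was not tested.

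Pdia3 was 1.12 ± 0.43 higher in log2 at 6 than at 1.5 µg/kg (2.18-fold) and 1.14 ± 0.43 higher than at 3 µg/kg (2.2-fold). In the fit with 8 controls as 1 group, whose spread includes the split of the controls, these did not pass (limma adjusted p = 0.201 and 0.301), nor did the slope of 0.27 ± 0.09 per µg/kg (0.142). With the control sets as separate groups the same differences had a standard error of 0.18 and limma adjusted p of 0.00366 and 0.00429, and the slope 0.00112. With the 3′ to 5′ ratio in the model, in the fit with 1 control group, the Pdia3 difference from 1.5 to 6 µg/kg was 0.59 (limma adjusted p = 0.593). Dnajc7 was 0.42 ± 0.25 higher at 6 than at 1.5 µg/kg (limma adjusted p = 0.442), and with the control sets apart its slope of 0.10 per µg/kg had an adjusted p of 0.0481. With the sets apart, 2 members passed from 3 to 6 µg/kg (0.358% of all probe sets), 2 from 1.5 to 6 µg/kg (1.75%) and 3 for the slope (2.75%). That fit was chosen after the data were seen. The members were chosen with the split of the controls and the doses against controls known, and the treated arrays are the same. These p-values and counts are therefore descriptions, and nothing is read from them. Hspe1, Pdia3 and Dnajc7 were the 3 members whose arrays at 1.5 and 6 µg/kg did not overlap; 8.83% of all probe sets did not overlap in one direction or the other.

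For most members the difference from 1.5 to 6 µg/kg had an interval that spanned 0. Taken as 2 standard errors either side, the intervals were −0.43 to 0.46 for bright Hspd1, −0.22 to 0.27 for Hspa9, −0.23 to 0.21 for Hspa5, −0.30 to 0.20 for Hsp90b1 and −0.10 to 0.33 for Hspa8. Intervals for Dnajc7 (−0.09 to 0.93), dim Hspd1 (−0.52 to 1.11) and dim Canx (−0.46 to 0.29) spanned 0 too. Bright Canx, with 0.46 and an interval of 0.04 to 0.87, had a limma adjusted p of 0.286. Hspe1 was at 0.53 (interval 0.33 to 0.73), which overlapped with the intervals of bright Hspd1, dim Hspd1, Dnajc7 and bright Canx. Hspe1 was chosen as low at 1.5 µg/kg, so nothing is read from its interval beside the others. Pdia3 was at 1.12 (interval 0.27 to 1.98). No test between members is given.

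**Figure D3:**
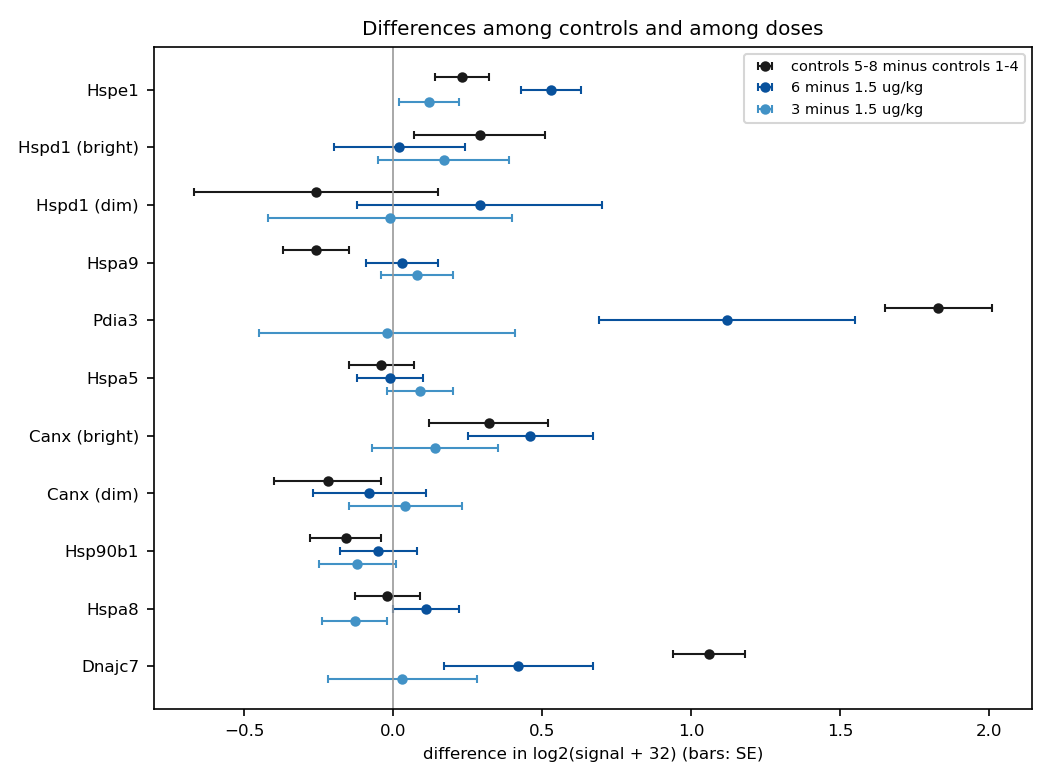
Difference in log2(signal + 32) (x axis) for the 11 member probe sets (y axis) between the control sets and between doses, with n = 4 arrays on each side. Points are limma estimates and bars standard errors; Pdia3 and Dnajc7 lie at 1.83 and 1.06 between the control sets, and Hspe1 and Pdia3 at 0.53 and 1.12 between 6 and 1.5 µg/kg.

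Whether Hspe1 and Pdia3 moved with their partners was described by the log2 ratio of the pair within each array. These ratios were set up after the levels of both genes had been seen, so they are given with no test. From 1.5 to 6 µg/kg the ratio of Hspe1 to Hspa9 differed by 0.50, that of Pdia3 to Hspa5 by 1.13, to Hsp90b1 by 1.17 and to bright Canx by 0.67. In each case the 4 and 4 arrays did not overlap, but how often ratios of other genes do so was not counted. Between the untreated control sets, 5 to 8 minus 1 to 4, the same ratios differed by 0.49, 1.87, 1.99 and 1.50, about as much as between the doses or more. The ratio of Hspe1 to bright Hspd1 was 0.51 higher at 6 than at 1.5 µg/kg, with overlapping arrays, and differed by −0.06 between the control sets. The SD of that ratio was 0.42 and 0.43 within the doses, compared with 0.16 and 0.19 for Hspe1 over Hspa9.

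Across arrays within groups, no correlation of Hspe1 or Pdia3 with a partner passed the test. With the 4 group means removed, Hspe1 and bright Hspd1 gave Pearson r = 0.17 (permutation p = 0.522, adjusted 0.626) and Spearman rho = 0.21 (permutation p = 0.413), Hspe1 and Hspa9 r = −0.30 (permutation p = 0.273, adjusted 0.545) and rho = −0.27 (permutation p = 0.284), and Hspd1 and Hspa9 r = −0.34 (permutation p = 0.176, adjusted 0.545) and rho = −0.32 (permutation p = 0.176). Without the 2 arrays farthest from the median of the first gene r was 0.28, −0.21 and −0.29. With the control sets centred apart, the same 3 pairs gave r = 0.00, 0.01 and −0.24 (permutation, adjusted p = 0.987, 0.987 and 0.729). With the 4 group means removed, Pdia3 gave r = 0.08 with Hspa5, 0.25 with bright Canx and −0.39 with Hsp90b1. Their permutation adjusted p was 0.692, 0.626 and 0.545. The Pdia3 controls form separate clusters, so its pairs are given in the second centring too. Pdia3 and Hspa5 then gave r = 0.43 (permutation p = 0.127, adjusted 0.461) and rho = 0.32, Pdia3 and bright Canx r = −0.22 (permutation p = 0.486, adjusted 0.729) and rho = −0.18, and Pdia3 and Hsp90b1 r = −0.29 (permutation p = 0.154, adjusted 0.461) and rho = −0.23. Without the 2 farthest arrays r was 0.51, −0.04 and −0.26. Each centring had 6 pairs over 20 arrays, and p was adjusted over those 6. Over all 55 pairs of member probe sets, centred in the same 5 groups, 0 passed after adjustment, r ranged from −0.62 (Hsp90b1 with Dnajc7) to 0.59 (the 2 Canx probe sets), 28 were above 0, and the median was 0.01.

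**Figure D4:**
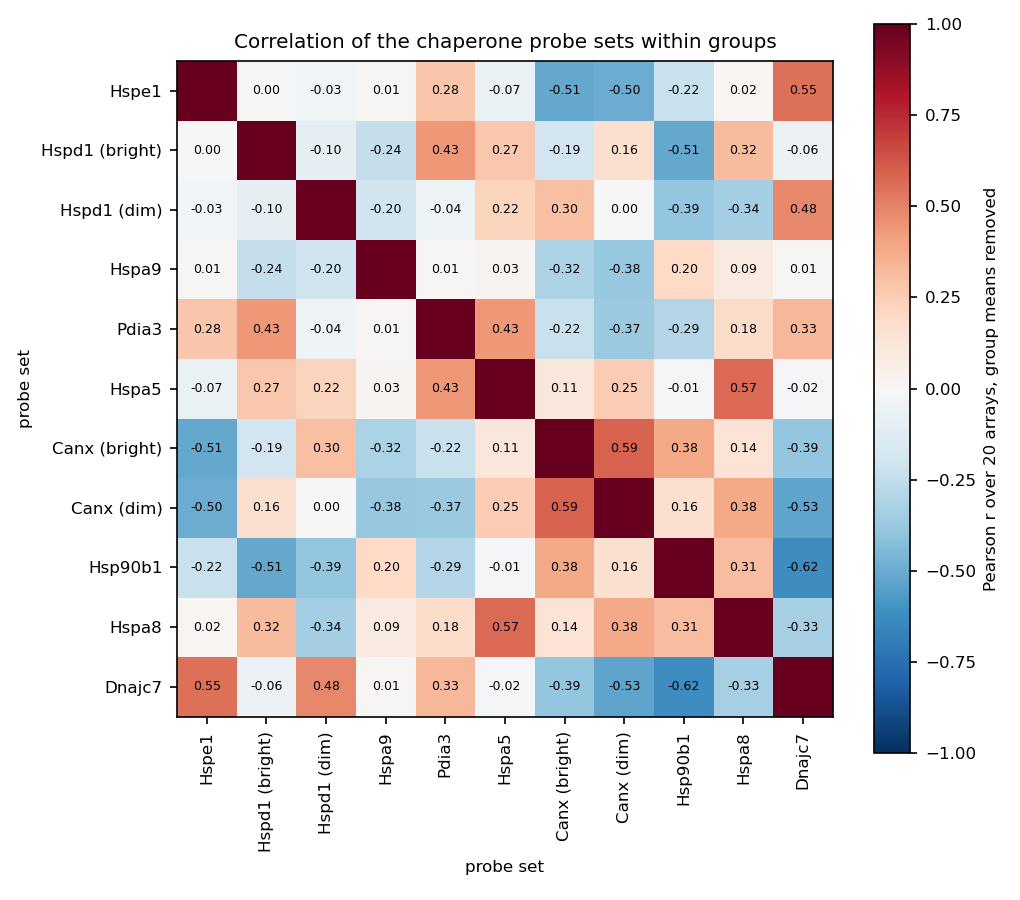
Pearson r of log2(signal + 32) for each pair of the 11 member probe sets (both axes) over 20 arrays, with the means of controls 1 to 4, controls 5 to 8 and each dose removed. Colour and printed value give r; Hspe1 with bright Hspd1 is 0.00, Pdia3 with Hspa5 0.43, and the 2 Canx probe sets 0.59.

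The genes most like Pdia3 in their variation depended on whether the split of the controls was left in. With the 4 group means removed, Dnajc7 was the most alike of 8096 other probe sets (r = 0.89 over 20 arrays), followed by Mpv17, Eif1ax, Pptc7 and Tmem126a (0.89, 0.86, 0.85 and 0.85), while Hspa5 had rank 3201 and bright Canx rank 1835. Pptc7, Snrpd3, Klf13 and Eif1ax were among the most like Dnajc7 (0.93, 0.91, 0.90 and 0.89). With the control sets centred apart, Pdia3 was most like Hspa4, Mrpl44, Tubgcp3, Npm1 and Sfxn1 (0.79, 0.77, 0.76, 0.75 and 0.75), Hspa5 had rank 566 (r = 0.43), Dnajc7 rank 1054 (r = 0.33) and bright Canx rank 5980 (r = −0.22). Hspe1 was most like Hccs, Mrpl58, Uqcc3, Psmb1 and Rpa3 (0.84, 0.83, 0.80, 0.80 and 0.78), and with the sets apart Mrpl58, Higd2a, Ndufc1, Hccs and Lamtor2 (0.82, 0.79, 0.76, 0.75 and 0.75). For Hspe1, with the 4 group means removed, Dnajc7 had rank 16, Pdia3 rank 80, bright Hspd1 rank 2310 and Hspa9 rank 6561. With the sets apart these ranks were 100, 1117, 3812 and 3663. These are descriptions over arrays that share their scaling.

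Wider lists of the same pathways, members left out, gave 0 genes past the limma threshold in any dose or dose-against-dose comparison. Of all probe sets, at most 0.346% passed in any of these. Of 14 measured genes of mitochondrial proteostasis (20 listed), 12 had a negative difference at 1.5 µg/kg and 12 at 3 µg/kg. The medians were −0.13 and −0.09 beside 0.01 and 0.0 over all probe sets. An unadjusted p under 0.05 was found for 3 and 1 of them, where 12.6% and 5.7% of all probe sets had one. Examples at 1.5 µg/kg were Lonp1, a matrix protease (−0.38 ± 0.14, adjusted p = 0.24), Timm17a, a subunit of the import channel (−0.33 ± 0.10, adjusted p = 0.167), and Grpel1, the nucleotide exchange factor of Hspa9 (−0.33 ± 0.14, adjusted p = 0.336). From 1.5 to 6 µg/kg 11 of these 14 had a positive difference, with a median of 0.13. An unadjusted p under 0.05 was found for 1, where 15.6% of all probe sets had one. The same 1.5 µg/kg arrays enter this comparison with the opposite sign, so it is not a separate result. At 6 µg/kg against controls 10 of the 14 had a negative difference, with a median of −0.03. Between the untreated control sets, 7 were higher and 7 lower in controls 5 to 8, with a median of 0.02. There 4 had an unadjusted p under 0.05, where 14.9% of all probe sets had one.

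Of 22 measured ER chaperones and folding enzymes (26 listed), 13 had a negative and 9 a positive difference at 1.5 µg/kg, with a median of −0.06 and 3 at an unadjusted p under 0.05 (12.6% of all probe sets had one). Fkbp2, an ER prolyl isomerase, was at −0.25 ± 0.09 (limma adjusted p = 0.258). Uggt1, the glucosyltransferase that sends misfolded glycoproteins back to calnexin and calreticulin, was at 0.56 ± 0.21 (limma adjusted p = 0.25), and Prkcsh, a subunit of glucosidase II, at 0.21 ± 0.08 (0.246). Of 12 measured genes of the unfolded protein response and ER-associated degradation (15 listed), 0 had an unadjusted p under 0.05 in any comparison. Eif2ak3 (PERK), a sensor of that response, was at 0.19, 0.15 and 0.14 at the rising doses (SE 0.15 each), and its downstream genes Trib3 and Ppp1r15a at −0.35 ± 0.28 and 0.12 ± 0.14 at 1.5 µg/kg.

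Of 27 measured cytosolic heat shock proteins and co-chaperones (38 listed), 19 had a negative difference at 1.5 µg/kg, with a median of −0.06. An unadjusted p under 0.05 was found for 2, where 12.6% of all probe sets had one. Stip1 (HOP), which bridges Hsp70 and Hsp90, was at −0.46 ± 0.11, −0.26 ± 0.11 and −0.21 ± 0.11 over the rising doses (limma adjusted p = 0.0955, 0.849 and 0.586). St13 (HIP), an Hsp70 co-factor, was at −0.20 ± 0.07 at 1.5 µg/kg (0.232). Of 11 measured subunits of the cytosolic chaperonin TRiC and of prefoldin (13 listed), 7 had a negative difference at 1.5 µg/kg, with a median of −0.13. Cct8, a TRiC subunit, was lower in controls 5 to 8 than in controls 1 to 4 (−0.45 ± 0.10, limma adjusted p = 0.0273). It was the 1 gene of these 5 lists to pass in that comparison, where 1.57% of all probe sets did, and nothing is read from this count.

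Markers of cell types were summed per array beside these results. Leukocyte markers (8 of 10 above the filter; Fcer1g and Ptprc at most 62.5) were 2941 to 3306 in controls 1 to 4, 2726 to 3098 in controls 5 to 8, 3352 to 3704 at 1.5 µg/kg, 3487 to 4017 at 3 µg/kg and 3600 to 3977 at 6 µg/kg, above all controls at every dose. Fibroblast markers (10 of 10) ranged from 42273 to 52348 in controls and from 45195 to 62252 in treated arrays. Lung epithelial markers (3 of 10) ranged from 224 to 4541 with overlap of all groups. Liver markers were 991 to 3419, 1132 to 1528 and 756 to 1887 at 1.5, 3 and 6 µg/kg. Heart muscle markers (10 of 10) were 159929 to 174858 in controls 1 to 4 and 160621 to 165916 in controls 5 to 8. At the rising doses they were 132906 to 180372, 146895 to 163193 and 161543 to 198050. Between 6 µg/kg and controls 5 to 8, Pdia3 and Dnajc7 differed by −0.03 and −0.05. The part of these cell types in the members' levels was not tested.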

How the data were processed

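Affymetrix MG-U74Av2 arrays were used for 20 samples of total RNA from whole fetal hearts (8 controls, 4 at each of 1.5, 3 and 6 µg/kg TCDD). The values that the authors deposited are linear MAS5 intensities, per the submitters' processing notes; the version was not given in the sources used here. The 2% trimmed mean lay between 500.28 and 500.341 in every array. Arrays were scaled to 500 over all probe sets, the 66 AFFX control probe sets included, and values were log2(signal + 32). The AFFX probe sets were left out after scaling. Filtering at the 40th percentile in at least 4 arrays kept 8097 of 12422 probe sets. Symbols came from the platform annotation, locations and promoters from RefSeq (GRCm38.p6); probe positions were not used.

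Models were fitted to all 20 arrays with limma 3.58.1 in R 4.3.3 (lmFit and contrasts, then eBayes with an intensity trend), with Benjamini-Hochberg adjustment over 8097 probe sets and a threshold of 0.05. Tests were two-sided. Correlations used 100000 permutations of arrays within groups. The members, lists and tests were chosen with earlier results of these data known. The pairing of Pdia3 with Calr, 1 of 7 planned pairs, could not be fitted because Calr was below the filter. Named genes were all member probe sets, Cyp1a1 and Cyp1b1, the 5 probe sets most like Hspe1, Pdia3 and Dnajc7, and from each list the genes past the threshold in any comparison and the 3 with the smallest p at 1.5 µg/kg; of these, examples are printed. The model fit and the correlations were tested on simulated data. Alternatives were quantile normalization, pseudocounts of 1 and 100, no filter or one at the 60th percentile, either control set alone, a replicate block, a covariate for RNA integrity (the 3′ to 5′ ratio of β-actin and Gapdh), eBayes without the trend, and leaving out each array. Fitting the control sets apart, centring them apart in the correlations, the pair ratios and all 55 correlations were added after seeing the data.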

Additional observations from a re-analysis of the deposited data

Results flagged for a closer look

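In 6 of 44 groups of arrays, 1 array lay far from the others by Dixon's test at the 95% level, which chance flags in about 1 of 20 groups. For bright Hspd1 these were control 1, with a signal of 4777.9 where the other controls had 8056.5 to 10232.5, and array 4 of 3 µg/kg, with 6056.7 against 9354.9 to 9855.9. Hspa5 was 4928.0 in control 1 against 4006.3 to 4306.2 in the other controls. Bright Canx was 219.3 in control 4 against 361.9 to 541.3. Hsp90b1 was 3110.6 in array 3 of 1.5 µg/kg against 3838.9 to 3941.5, and 3929.7 in array 4 of 3 µg/kg against 3194.6 to 3282.7. Control 1 and array 4 of 3 µg/kg each appear for 2 genes, in opposite directions. None of these values belongs to Hspe1, Pdia3 or Dnajc7.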

How the results depend on the processing

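Quantile normalization, a pseudocount of 1 or 100, another filter (none, or the 60th percentile) and eBayes without the trend moved no member result across its threshold and reversed no called difference. A difference that did not pass was counted as moved only beyond 1 SD between arrays, and as reversed only when a called value changed sign. With controls 1 to 4 alone, 2 member probe sets passed at 6 µg/kg against controls, 1 from 3 to 6 µg/kg, 2 from 1.5 to 6 µg/kg and 2 for the slope; with controls 5 to 8 alone, 3 passed at 1.5 µg/kg, 1 at 3 µg/kg, 2 from 3 to 6 µg/kg, 3 from 1.5 to 6 µg/kg and 3 for the slope. Dnajc7 at 1.5 µg/kg reversed from 0.05 to −0.48 with controls 5 to 8 alone. Fitting the sets apart, 1 passed at 1.5 µg/kg, 1 at 6 µg/kg, 2 from 3 to 6 µg/kg, 2 from 1.5 to 6 µg/kg and 3 for the slope. In all 3 settings Pdia3 passed from 3 to 6 µg/kg (1.14), from 1.5 to 6 µg/kg (1.12) and for the slope (0.27), and Hspe1 from 3 to 6 µg/kg (0.41) with controls 5 to 8 alone and with the sets apart. These settings take the split of the controls out of the spread, and the members were chosen with that split known. With the 3′ to 5′ covariate 0 members passed from 1.5 to 6 µg/kg and 0 for the slope, and Hspe1 was 0.48 and 0.11; at 1.5 µg/kg against controls, bright Hspd1 went from −0.14 to 0.22 and Pdia3 from −0.24 to 0.30, neither past the threshold. The cause was not tested. Leaving out each array gave 0 to 1 members at 1.5 µg/kg (Hspe1, without control 2 or array 4), 0 to 1 from 1.5 to 6 µg/kg and 0 to 1 for the slope, with Hspe1 at 0.49 to 0.60 and 0.11 to 0.13.

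The replicate numbers are not known to pair the arrays. Same-numbered arrays had correlations of deviations of −0.22 to 0.21, with 5 of 24 over 0.1, which does not settle whether they are paired. With a replicate block 2 members passed at 6 µg/kg, 1 from 3 to 6 µg/kg, 2 from 1.5 to 6 µg/kg and 2 for the slope, and Pdia3 passed at 1.14, 1.12 and 0.27 in the last 3. Controls 5 to 8 share no number with a treated array, so their blocks take them out of that fit. The control sets could not be compared under this block or with 1 set alone. The bright Hspd1 spread limits what its comparisons can show, and the dim Hspd1 probe set and Calr have low signals.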
